A study of Mus musculus with 9 samples.

Results

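The genes of the mouse major histocompatibility complex (MHC), named H2, and the genes that load and control their products were measured in whole liver. The members were all rows whose symbol starts with H2- and, by name, B2m, Tap1, Tap2, Tapbp, Cd74, Ciita and Nlrc5, which gave 51 of 23440 gene rows. By role, 37 were class I genes (3 classical heavy chains, 29 other heavy chains called class Ib, 4 helpers and 1 regulator), 12 were class II genes (5 chains, 6 helpers and 1 regulator), and 2 carry an H2 name only for where they lie. The RNA came from livers of C57Bl6 mice in 3 groups of 3 libraries: untreated at 2 months (young), untreated at 20 to 22 months (aged), and aged 20 to 22 months with PD-0332991 in the chow for 2 weeks (treated). PD-0332991 is palbociclib, which blocks CDK4 and CDK6, kinases that drive entry into the cell cycle; the labels give its amount as 450 with the unit written mg/k. The labels name no genetic change, and no treated young group was analysed here, so the drug was compared with no drug in aged mice only. Whether each library is a mouse of its own is not labelled, and p-values here measure library-to-library spread, which may be technical.

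MHC class I molecules pair a heavy chain with beta-2-microglobulin (B2m) and show peptides from inside the cell to CD8 T cells. The peptides are cut by the proteasome, pumped into the endoplasmic reticulum by the Tap1-Tap2 transporter and loaded with the help of tapasin (Tapbp). Class II molecules pair an alpha and a beta chain, are made mainly by dendritic cells, B cells and macrophages, and show peptides from taken-up material to CD4 T cells; the invariant chain (Cd74) and H2-DM steer their loading. Nlrc5 switches on class I promoters and Ciita switches on class II promoters, and interferon-gamma raises both. Of the class Ib genes, H2-Q10 encodes a class I molecule that the mouse liver secretes, H2-T23 encodes Qa-1, which NK cells read, and H2-T22 encodes a molecule read by some gamma-delta T cells.

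Of the members, 43 lie on chromosome 17 between positions 33919478 and 37483554, the H2 region (this and all positions below are RefSeq's, GRCm38.p6). To show what the promoters of the chains described here carry, the 250 bases upstream of a RefSeq start (GRCm38.p6) are printed. They run 5′ to 3′ on the gene's strand. Shown are a classical class I chain, the liver's secreted chain and a class Ib chain that fell in treated livers. The class II chains shown are A alpha (H2-Aa) and E beta (H2-Eb1), which belong to different molecules. H2-Ab1, the A beta chain, had no listed promoter. Capitals mark matches, on either strand, to GGGANTCCC (the kappaB site of the class I enhancer), GAAANNGAA (an interferon-stimulated response element) and ATTGG (the Y box, or CCAAT box) in class I promoters, and to ACNGATG (the end of the class II X box) and ATTGG in class II promoters. The printed stretches lie at chr17:34000348-34000597 (minus strand), chr17:35469839-35470088 (plus), chr17:36042743-36042992 (minus), chr17:34287824-34288073 (minus) and chr17:34305617-34305866 (plus), in that order. The H2-K1 stretch belongs to a listed start inside the gene span (chr17:33996012-34000619), so it lies within that span. H2-K1 has another listed start, whose stretch is chr17:34000334-34000583 and is not printed.
H2-K1: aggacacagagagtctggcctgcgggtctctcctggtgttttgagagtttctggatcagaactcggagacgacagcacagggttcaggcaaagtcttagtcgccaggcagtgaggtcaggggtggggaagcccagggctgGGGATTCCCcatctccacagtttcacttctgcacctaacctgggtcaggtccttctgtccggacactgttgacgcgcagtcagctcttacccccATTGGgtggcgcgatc
H2-Q10: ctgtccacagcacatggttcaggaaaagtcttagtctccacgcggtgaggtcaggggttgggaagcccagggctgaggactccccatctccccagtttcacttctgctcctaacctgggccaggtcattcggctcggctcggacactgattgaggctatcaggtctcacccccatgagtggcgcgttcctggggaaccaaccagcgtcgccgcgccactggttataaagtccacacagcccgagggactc
H2-T22: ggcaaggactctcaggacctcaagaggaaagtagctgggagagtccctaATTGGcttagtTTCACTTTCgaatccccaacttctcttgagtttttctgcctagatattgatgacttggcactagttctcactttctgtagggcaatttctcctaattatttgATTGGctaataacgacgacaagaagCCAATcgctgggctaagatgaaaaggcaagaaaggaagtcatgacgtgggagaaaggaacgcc
H2-Aa: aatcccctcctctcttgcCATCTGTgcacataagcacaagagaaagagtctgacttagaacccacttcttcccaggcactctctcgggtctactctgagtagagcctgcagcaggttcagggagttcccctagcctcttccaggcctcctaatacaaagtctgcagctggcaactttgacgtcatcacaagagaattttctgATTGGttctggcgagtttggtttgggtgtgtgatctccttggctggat
H2-Eb1: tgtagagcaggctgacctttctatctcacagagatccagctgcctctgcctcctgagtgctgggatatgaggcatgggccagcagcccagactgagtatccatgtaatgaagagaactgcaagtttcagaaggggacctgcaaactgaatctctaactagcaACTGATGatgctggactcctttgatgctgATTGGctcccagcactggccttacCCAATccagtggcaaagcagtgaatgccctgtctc

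RefSeq listed promoters for 35 of the members, 39 in all, since some genes have more than 1 start. Counted over 250 bases before to 50 after the start, ATTGG stood in 21 of 24 class I heavy-chain promoters and in 8 of 9 class II promoters, against 37.4% of all 32851 promoters of that length. ACNGATG stood in 6 of 9 class II and 12 of 24 class I heavy-chain promoters, against 9.85% of all. The kappaB letters stood in 5 of 24 class I heavy-chain promoters and in 0 of 9 class II promoters, against 0.767% of all. GAAANNGAA stood in 2 of 24 and 0 of 9, against 8.56%. H2-Q10, printed above with no capitals, held none of these 4 motifs, H2-K1 held the kappaB and Y box letters, and H2-T22 held, as H2-T23 did, the response element letters. A match here is a match of letters, not a measured binding site. In H2-Aa the ACNGATG match stood at -232 from the start, far from the ATTGG match at -48. In H2-DMb1 the same motifs stood closer, at -91 and -61, as in H2-DMb2 (-120 and -90) and H2-Eb2 (-129 and -100). In H2-Oa they stood at -137 and -43. The capitals in H2-Aa thus mark letters only, and whether they mark its X box was not tested.

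The deposited values are TPM, a relative abundance per transcript length, so levels can be compared between genes but the sequencing depth is unknown. The rows listed summed to between 53.1% and 57.6% of the TPM total per library. Genes at 1 TPM or above in 3 libraries or more, 10161 in all, were tested with limma on log2(TPM + 0.5), a scale that understates the change of low genes, and were called at an adjusted p under 0.05 (Benjamini-Hochberg over all tested genes). Log2 differences of single genes below are on that scale, with ± for their standard error. Those of summed TPM and of ratios of sums are on a log2 scale without the added 0.5. The median log2 difference over all tested genes was -0.01 for aged against young, -0.09 for treated against aged and -0.10 for treated against young. Rescaling the libraries by median of ratios moved the last 2 of these to 0.01 and 0.02, so log2 differences of about 0.1 between treated and untreated libraries depend on the scaling. Of the genes called in treated against aged livers, 62 were higher and 85 lower, which became 119 and 55 with median-of-ratios scaling and 88 and 56 with quantile normalization. For treated against young livers the split was 263 higher and 436 lower, and 386 and 228 or 308 and 310 under the same 2 scalings. Summed TPM of 6 hepatocyte markers lay between 30479 and 35045 in all libraries. The sum holds opposite moves: in treated against young livers 2 of the 6 lay above and 4 below 0. Ttr was called lower (mean 7682 TPM in young, 5811 in treated, limma adjusted p = 0.0357). Fgb was higher (2115 and 3476 TPM) but not called.

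Of the 51 members, 28 passed the filter: 20 of 37 class I genes, 6 of 12 class II genes and both genes named for position. The other 23 were not tested. Of these, 19 stayed under 1 TPM in every library, and 10 were listed at 0 in all 9: 9 of the 12 H2-M class Ib genes and H2-Ea-ps, the class II E alpha gene that C57BL/6 mice carry in a disabled form. H2-Q1, H2-Q6, H2-T24 and H2-Ob reached 1 TPM in fewer than 3 libraries.

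Class I expression in these livers was dominated by a few genes. B2m (chr2:122147687-122153082) was the most abundant member, at 1701, 2089 and 2260 TPM in the young, 1826, 2110 and 1992 in the aged and 1801, 1807 and 1934 in the treated libraries. H2-Q10 (chr17:35470089-35474563) was the most abundant heavy chain, at 1205, 1446 and 1328 TPM in the young, 1646, 1657 and 1840 in the aged and 1730, 1557 and 1612 in the treated libraries. The classical chain H2-K1 (chr17:33996012-34000619) was at 705, 804 and 735 TPM in the young, 837, 719 and 902 in the aged and 849, 797 and 771 in the treated libraries. In every library H2-Q10 stood above H2-K1, and H2-K1 above every other heavy chain. H2-Q10 held between 50.8% and 56.9% of the TPM of all 32 heavy-chain genes and H2-K1 between 24.7% and 29.7%. The next heavy chain was the classical H2-D1 (chr17:35263094-35267497), at 209, 287 and 246 TPM in the young, 345, 287 and 331 in the aged and 300.2, 328 and 279.9 in the treated libraries. H2-T23 (chr17:36029977-36032701) followed at 97.3, 124.6 and 106.7 TPM in the young, 102.9, 103.2 and 127.0 in the aged and 102.5, 94.1 and 89.9 in the treated libraries. These 4 heavy chains did not overlap with each other in any group. Below them, H2-T9, H2-Q5, H2-Q7, H2-Q4, H2-T22 and H2-Q9 lay between 8.22 and 42.9 TPM, and neighbours in this order overlapped. The classical gene H2-L, which the C57BL/6 haplotype is known to lack, was listed at 2.13 to 7.89 TPM, and the symbol has no match in RefSeq.

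**Figure D1:**
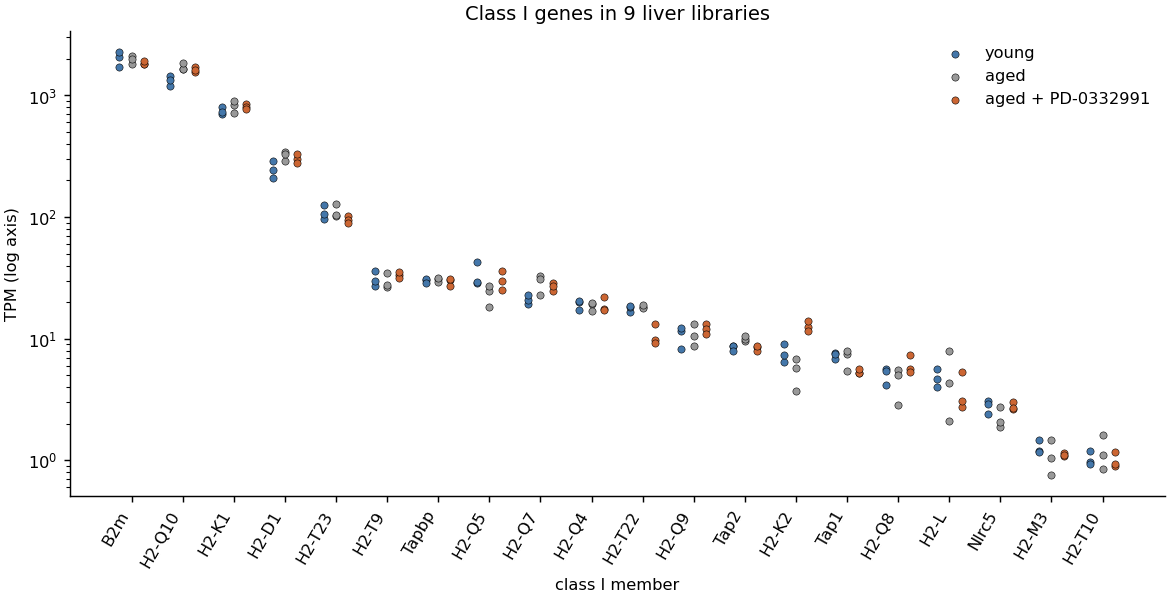
TPM (log axis) of the 20 tested class I members in each of the 9 liver libraries, ordered by level; points are single libraries coloured by group. B2m, H2-Q10, H2-K1, H2-D1 and H2-T23 stand above the other tested class I genes in every library, and the treated libraries leave the untreated ones in H2-T22 (lower) and H2-K2 (higher).

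With age, no class I gene passed the test. Among all 28 tested members 0 were called in aged against young livers, where 1.1% of all tested genes were; 3 members were higher and 5 lower at an unadjusted p under 0.05 in the same limma fit. Groups did not overlap for 5 of the 28 members (2 higher, 3 lower), against 18.4% of all tested genes. The median log2 difference over the 20 class I genes was -0.0008, with 10 above and 10 below 0. The 2 members called under any other setting run were the secreted chain H2-Q10 and H2-Q7, a Qa-2 chain. H2-Q10 was higher in all 3 aged than in all 3 young libraries, by 0.37 ± 0.0968, 1.29-fold (limma adjusted p = 0.0987), and passed only when limma weighted the libraries by quality (0.36, adjusted p = 0.0473). H2-Q7 was at 19.2, 20.9 and 23 TPM in the young, 33.1, 31 and 22.8 in the aged and 28.8, 24.7 and 27.1 in the treated libraries, where aged replicate 3 lay within the young range. Its difference of 0.44 ± 0.139, 1.36-fold had a limma adjusted p of 0.166, and it passed with library weights (0.56, adjusted p = 0.0245) and without aged replicate 3 (0.60, adjusted p = 0.0102). H2-Q9, which was paired with H2-Q7 by name, alone was 0.02 ± 0.174. The sum of the pair overlapped between aged and young libraries (0.32 on the log2 scale, exact permutation p = 0.3, 0.476 adjusted over 27 sums).

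The remaining abundant class I genes were not called with age. H2-D1 was 0.38 ± 0.126, 1.3-fold (limma adjusted p = 0.184), with young replicate 2 at the level of the lowest aged library. H2-K1 was 0.13 ± 0.103 (adjusted p = 0.611), H2-T23 0.02 ± 0.12 (0.959) and B2m -0.02 ± 0.112 (0.952); all 3 overlapped between groups. H2-Q5, which RefSeq classes as a pseudogene (chr17:35394099-35395630), was at 42.9, 28.9 and 29.1 TPM in the young, 18.3, 24.5 and 27.1 in the aged and 35.9, 29.7 and 25.2 in the treated libraries. All aged libraries lay below all young ones, but only 42.2% of its 31-base stretches are found in no other gene, and the difference of -0.52 ± 0.193 was not called (limma adjusted p = 0.25). The summed TPM of all 32 heavy chains was 2587 ± 224 TPM in young, 3116 ± 225 in aged and 2996 ± 140.0 in treated libraries (mean ± SD, n = 3). Young and aged sums did not overlap (log2 difference 0.27, exact two-sided permutation p = 0.1, the smallest that 3 against 3 libraries allow, and 0.27 after adjustment over the 27 sums compared). The ratio of B2m to the heavy-chain sum was 0.779 ± 0.0884 in young, 0.637 ± 0.0763 in aged and 0.618 ± 0.0478 in treated libraries; young replicate 1 (0.716) lay below aged replicate 2 (0.725).

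PD-0332991 gave 2 called members in aged livers, both class I genes with close relatives in the genome: H2-K2 rose and H2-T22 fell. That is 2 of 28 tested members, where 1.45% of all tested genes were called, and the groups did not overlap for 5 of the 28 (1 higher, 4 lower), against 22.4% of all tested genes. H2-K2 (chr17:33974659-33978791), a transcribed class I pseudogene near H2-K1, was at 8.97, 6.39 and 7.34 TPM in the young, 5.78, 3.7 and 6.81 in the aged and 12.5, 13.9 and 11.6 in the treated libraries. All treated libraries lay above all 6 untreated ones. Treated exceeded aged livers by 1.18 ± 0.194, 2.27-fold (limma adjusted p = 0.0189). The call was lost without treated replicate 2 (adjusted p = 0.088) or 3 (0.0652), with no filter on low genes (0.0564) and when only the 6 libraries compared were fitted (0.0557). Against young livers the difference was 0.71 ± 0.194, 1.64-fold (limma adjusted p = 0.051), not called, though 6 of the alternatives run called it.

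H2-T22 (chr17:36037128-36042742) was at 16.6, 18.2 and 18.6 TPM in the young, 18.4, 17.7 and 19 in the aged and 13.2, 9.71 and 9.29 in the treated libraries. The 6 untreated libraries lay within 16.6 to 19 TPM and all treated ones below them. H2-T22 was lower in treated than in aged livers (-0.76 ± 0.13, 0.589-fold, limma adjusted p = 0.0199) and than in young ones (-0.72 ± 0.13, 0.608-fold, limma adjusted p = 0.0107); 6.88% of all tested genes were called in this last comparison, and H2-T22 was the 1 member among them. The call against aged livers was lost without aged replicate 2 (adjusted p = 0.0519), treated replicate 2 (0.0949) or treated replicate 3 (0.0794), with no filter (0.056) and in the fit of 6 libraries (0.0679). Against young livers it was lost without treated replicate 2 (0.0545). The aged and young levels of H2-T22 were close, 0.04 ± 0.13 on the log2 scale.

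Some class I genes are near copies of each other, so reads can be divided between them differently from library to library. The pairs summed were listed by name. How far genes share sequence was judged after the data were seen. The measure was the share of each gene's 31-base stretches that occur in no other gene's transcripts (GENCODE M21, GRCm38). That share was 32.6% for H2-T22, of whose stretches 47.2% also stand in H2-T10, and 83.4% for H2-K2. H2-T9, H2-Q8 and H2-Q9 have no entry in that annotation. Their overlap with H2-T22, H2-Q6 and H2-Q7, respectively, was not measured. H2-T9, which was at 27.2, 35.9 and 29.9 TPM in the young, 26.5, 27.4 and 34.9 in the aged and 33.4, 31.7 and 35.6 in the treated libraries, and H2-T10, which RefSeq classes as a pseudogene, at 0.847 to 1.61 TPM, were added to H2-T22. The sum of the 3 genes was 45, 55 and 49.5 TPM in the young, 46, 46 and 55.5 in the aged and 47.5, 42.3 and 46.1 in the treated libraries, and the groups overlapped (treated against aged -0.11 on the log2 scale, exact permutation p = 0.6). H2-T22 held 35.9% ± 2.47 of that sum in young, 37.6% ± 2.95 in aged and 23.6% ± 3.88 in treated libraries. Without H2-T9, the sum of H2-T10 and H2-T22 was 19.5, 18.6 and 20.6 TPM in aged and 14.1, 10.65 and 10.47 in treated libraries, with no overlap (-0.75 on the log2 scale, exact permutation p = 0.1, the smallest possible; 0.27 adjusted over 27 sums). The pair thus separated treated from aged libraries, and the sum of 3 genes did not.

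H2-K2 held 0.512% to 1.72% of the sum of H2-K1 and H2-K2. That sum was 756 ± 49.7 TPM in young, 825 ± 94.5 in aged and 818 ± 39.8 in treated libraries, and treated and aged libraries overlapped (-0.01 on the log2 scale, exact permutation p = 1). A move of H2-K2 of a few TPM is smaller than the spread of H2-K1 between libraries of 1 group (SD 39.6 to 92.9 TPM), so the sum cannot show it. H2-Q6, a Qa-2 chain, was listed at under 0.01 TPM in 7 libraries and at 1.85 and 4.12 TPM in aged replicates 2 and 3, while its partner H2-Q8 was at 4.14, 5.67 and 5.43 TPM in the young, 5.51, 5.0 and 2.84 in the aged and 7.32, 5.62 and 5.37 in the treated libraries. Their sum was 4.14 to 7.32 TPM, with all groups overlapping, and the library with the highest H2-Q6 had the lowest H2-Q8.

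**Figure D2:**
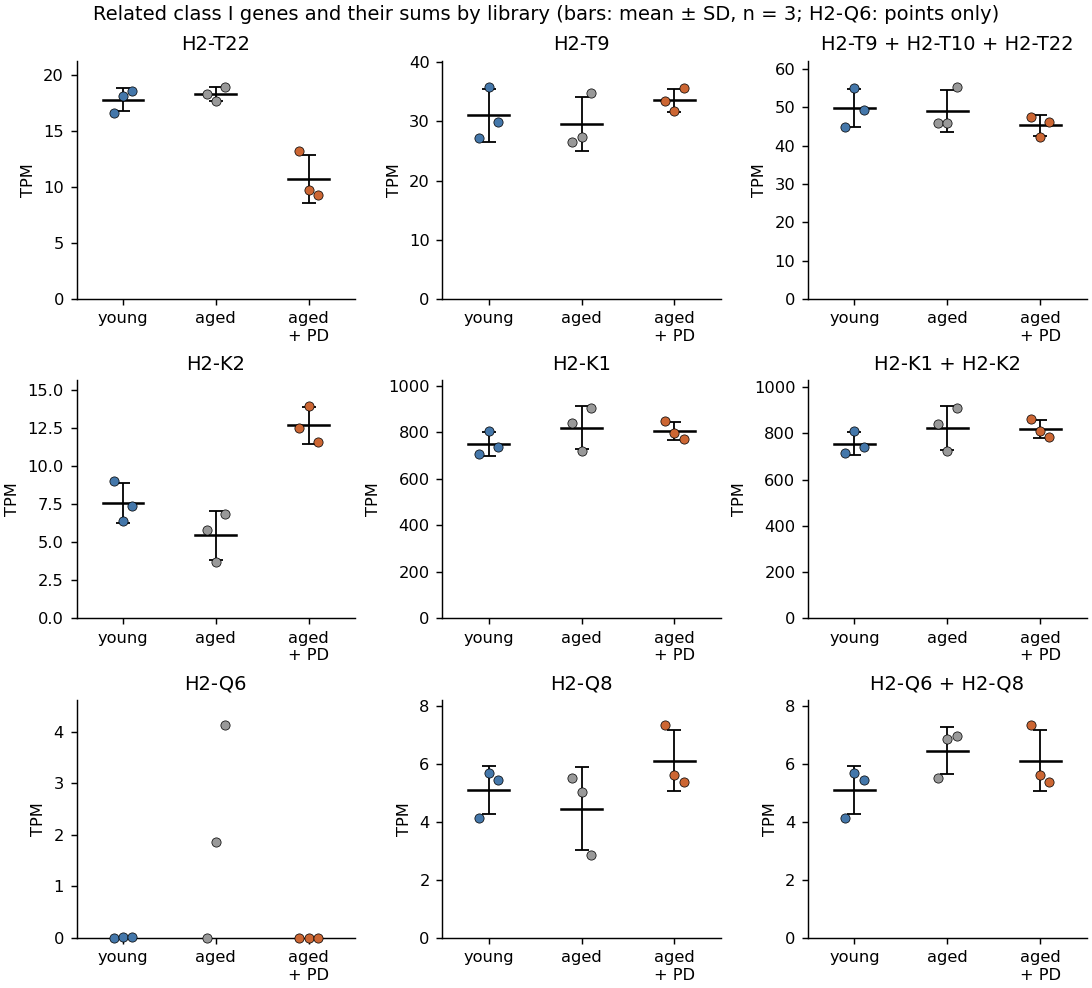
TPM by library (points), with mean and SD bars (n = 3; points alone for H2-Q6), for 3 sets of related class I genes and their sums. H2-T22 is lower and H2-K2 higher in all 3 treated libraries, the sums H2-T9 + H2-T10 + H2-T22 and H2-K1 + H2-K2 overlap between groups, and H2-Q6 is above 1 TPM only in aged replicates 2 and 3.

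The other class I genes did not pass the test in treated against aged livers. Tap1 and Tap2, which together form the peptide transporter, were the only other members of the 28 at an unadjusted p under 0.05, both below 0. Tap1 (chr17:34187556-34197225) was at 7.65, 6.83 and 7.48 TPM in the young, 7.55, 5.44 and 7.99 in the aged and 5.24, 5.27 and 5.67 in the treated libraries. Treated and aged libraries overlapped through aged replicate 2, and the difference was -0.33 ± 0.143, 0.795-fold (limma adjusted p = 0.251). Tap2 (chr17:34204479-34216321) was at 8.79, 8.77 and 7.95 TPM in the young, 9.54, 9.99 and 10.51 in the aged and 8.55, 7.95 and 8.65 in the treated libraries. All treated libraries lay below all aged ones (-0.24 ± 0.103, 0.845-fold, limma adjusted p = 0.241) and all aged ones above all young ones (0.22 ± 0.103, 1.17-fold, 0.337), and neither difference was called. Tapbp, at 30.4, 31 and 28.9 TPM in the young, 31, 29.1 and 31.5 in the aged and 30.3, 27 and 30.8 in the treated libraries, had log2 differences of 0.02 ± 0.092 for aged against young and -0.06 ± 0.092 for treated against aged (limma adjusted p = 0.945 and 0.779). Nlrc5, the class I transactivator, was at 3.1, 2.39 and 2.91 TPM in the young, 2.77, 1.89 and 2.08 in the aged and 3.01, 2.67 and 2.68 in the treated libraries. All groups overlapped, at -0.27 ± 0.157 with age and 0.27 ± 0.157 with the drug (limma adjusted p = 0.451 and 0.382).

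Among the abundant heavy chains, treated minus aged was -0.07 ± 0.0968 for H2-Q10 (limma adjusted p = 0.748), -0.02 ± 0.103 for H2-K1 (0.943) and -0.08 ± 0.126 for H2-D1 (0.777). These differences, and that of B2m (-0.10 ± 0.112, 0.696), are no larger than about the shift of the median of all genes, and they and those of Tapbp and H2-Q7 turned positive with median-of-ratios scaling. H2-T23 was lower in all treated than in all aged libraries, though treated replicate 1 and aged replicate 1 were close, and the difference was -0.21 ± 0.12 (limma adjusted p = 0.373). H2-T9 was 0.19 ± 0.131 (0.479), H2-Q7 -0.09 ± 0.139 (0.776) and H2-Q5 0.37 ± 0.193 (0.33), all with overlap. The median over the 20 class I genes was -0.06, with 8 above and 12 below 0, beside -0.09 over all tested genes.

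Treated against young livers, H2-T22 was the only class I gene called, while 4 class I genes were higher (H2-D1, H2-K2, H2-Q10 and H2-Q7) and Tap1 was lower at an unadjusted p under 0.05 in limma. H2-Q10 was 0.30 ± 0.0968, 1.23-fold (limma adjusted p = 0.0821), H2-D1 0.30 ± 0.126, 1.23-fold (0.164), H2-Q7 0.35 ± 0.139, 1.27-fold (0.147) and Tap1 -0.41 ± 0.143, 0.754-fold (0.108). H2-Q10 was called with median-of-ratios scaling (0.0275) and library weights (0.028), H2-Q7 with library weights (0.0452), and Tap1 with library weights (0.0483) and in the fit of 6 libraries (0.0397). These treated livers are also aged, so the comparison holds age and drug together. H2-K1 was 0.11 ± 0.103 (0.557), B2m -0.12 ± 0.112 (0.555), Tap2 -0.02 ± 0.103 (0.929) and Tapbp -0.04 ± 0.092 (0.835).

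Class II transcripts were scarce, and lower on average in both aged groups than in the young, without any gene passing the test. The invariant chain Cd74 was the most abundant, at 41.3, 44.4 and 53.4 TPM in the young, 37.5, 25.2 and 44.7 in the aged and 36.2, 35.5 and 34.1 in the treated libraries. H2-Aa (chr17:34282744-34287823), the A alpha chain, was at 26.1, 23.7 and 33.7 TPM in the young, 17, 11.4 and 21.8 in the aged and 19.7, 11.4 and 17.4 in the treated libraries. H2-Ab1 (chr17:34263227-34269418), the A beta chain, was at 16.7, 17.7 and 25.7 TPM in the young, 15.9, 11.5 and 19.2 in the aged and 16.2, 13.5 and 13.5 in the treated libraries. In Cd74 and H2-Ab1 aged replicate 3 lay within the young range, and in H2-Aa no aged or treated library reached the lowest young one. H2-Eb1 (chr17:34305867-34316674), the E beta chain, was at 11.1, 10.07 and 14.7 TPM in the young, 7.2, 5.29 and 9.38 in the aged and 9.69, 5.28 and 8.93 in the treated libraries, again with no aged or treated library up to the lowest young one. Of the loading helpers, H2-DMb1 was at 1.77, 2.11 and 3.71 TPM in the young, 1.22, 1.4 and 2.7 in the aged and 1.05, 1.33 and 1.39 in the treated libraries and H2-DMa at 0.811 to 1.68 TPM. Ciita, the class II transactivator, was at 0.177, 0.0522 and 0.0971 TPM in the young, 0.0911, 0.123 and 0.162 in the aged and 0.0903, 0.00759 and 0.0203 in the treated libraries, below the filter in every library. H2-Eb2, H2-DMb2 and H2-Oa stayed under 0.5 TPM, and H2-Ob was above 1 TPM only in aged replicate 3 (1.30).

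Aged against young, all 6 tested class II genes lay below 0, with a median of -0.41 beside -0.01 over all tested genes, and 0 of 6 were called. H2-Aa was -0.75 ± 0.256, 0.594-fold (limma adjusted p = 0.212), H2-Eb1 -0.69 ± 0.25, 0.62-fold (0.239), Cd74 -0.40 ± 0.179, 0.758-fold (0.328), H2-Ab1 -0.36 ± 0.197, 0.781-fold (0.437) and H2-DMb1 -0.42 ± 0.269, 0.748-fold (0.499). The first 3 had an unadjusted p under 0.05, and none was called under any alternative run. The groups did not overlap for H2-Aa and H2-Eb1. Young replicate 3 was the highest library in H2-Aa, H2-Ab1, H2-Eb1 and Cd74, and the lowest was treated replicate 2 in H2-Aa and H2-Eb1 and aged replicate 2 in H2-Ab1 and Cd74, while the order between them differed from gene to gene. Genes that share a library are not independent, so 6 of 6 in 1 direction is not 6 separate observations. In whole liver, fewer class II cells and less class II RNA per cell cannot be told apart.

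**Figure D3:**
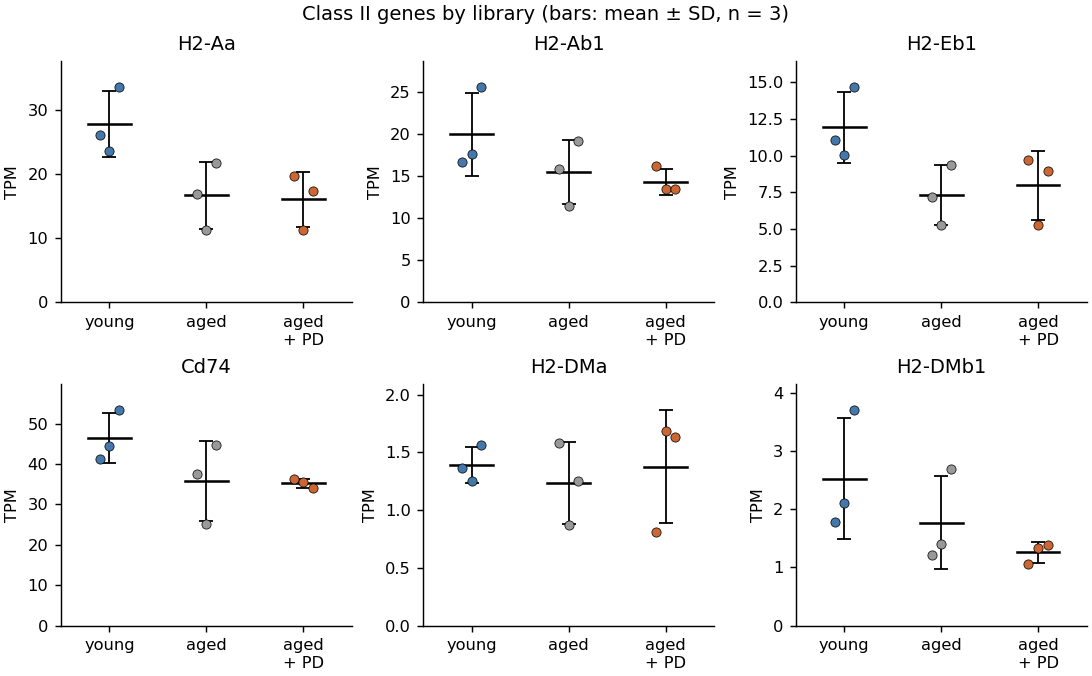
TPM by library (points) of the 6 tested class II members, with the mean and SD of each group (bars, n = 3). In H2-Aa and H2-Eb1 all aged and treated libraries lie below all young ones; in Cd74 and H2-Ab1 aged replicate 3 (44.7 and 19.2 TPM) lies within the young range.

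Treated and aged livers overlapped in every tested class II gene: the 6 genes had a median of -0.01, 3 above and 3 below 0, with 0 called and 0 at an unadjusted p under 0.05 in limma. H2-Aa was -0.04 ± 0.256 (limma adjusted p = 0.954), H2-Ab1 -0.08 ± 0.197 (0.861), H2-Eb1 0.11 ± 0.25 (0.853), Cd74 0.02 ± 0.179 (0.972), H2-DMa 0.10 ± 0.227 (0.863) and H2-DMb1 -0.32 ± 0.269 (0.568). The standard errors, 0.179 to 0.269, set how small a difference could be seen. Treated against young, which shares the young libraries with the age comparison, all 6 lay below 0 with a median of -0.51 beside -0.10 over all tested genes, and 0 of 6 were called. The groups did not overlap for 12 of the 28 members (3 higher, 9 lower), 5 of them class II genes, against 33.9% of all tested genes. H2-Aa was -0.79 ± 0.256, 0.579-fold (limma adjusted p = 0.0944), H2-DMb1 -0.74 ± 0.269, 0.599-fold (0.119), H2-Eb1 -0.58 ± 0.25, 0.67-fold (0.183), H2-Ab1 -0.44 ± 0.197, 0.737-fold (0.196) and Cd74 -0.38 ± 0.179, 0.767-fold (0.215). Some alternatives called class II genes here: library weights called H2-Aa (adjusted p = 0.0492), and the fit of the 6 libraries compared called H2-Aa (0.0415), Cd74 (0.0427) and H2-DMb1 (0.0473).

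Class I and class II were set against each other within each library, which cancels any scaling common to a library. The class II chains summed to 53.9, 51.5 and 74.1 TPM in the young, 40.1, 28.2 and 50.4 in the aged and 45.6, 30.1 and 39.8 in the treated libraries, so aged and young did not overlap (-0.62 on the log2 scale, exact permutation p = 0.1, 0.27 adjusted). The ratio of the class I heavy-chain sum to the class II chain sum was 44.1, 54.8 and 34.7 in young, 76.8, 103 and 66.5 in aged and 69.3, 97.2 and 72.9 in treated libraries. All aged and treated libraries lay above all young ones. The log2 ratio was 0.89 higher in aged than in young libraries, 1.85-fold, with an exact permutation p of 0.1, the smallest possible, and 0.27 after adjustment. Treated and aged differed by -0.03 (exact permutation p = 0.8). With each library left out in turn the age difference lay between 0.71 and 1.05.

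Markers of the cells that carry class II were read beside it. The 8 Kupffer cell and macrophage markers (Clec4f, Vsig4, Timd4, Cd5l, Marco, Emr1, Csf1r and Cd68) summed to 66.8 to 107 TPM in young, 60.9 to 86.5 in aged and 50.3 to 57.2 in treated libraries. Aged against young, 7 of 8 lay below 0 and 0 were called (2 at an unadjusted p under 0.05 in limma, both lower). Treated against young, 5 of 8 were called lower (Clec4f, Vsig4, Timd4, Csf1r and Cd68, with limma adjusted p of 0.0102 to 0.0759, 0.0299 to 0.122, 0.061 to 0.133, 0.0289 to 0.0967 and 0.0521 to 0.116 as each library was left out), where 6.88% of all tested genes were called, 436 of 699 of them lower, and treated against aged 0 of 8 were called with all 8 below 0 (4 at an unadjusted p under 0.05 in limma). The marker sum separated treated from aged libraries without overlap in TPM, while the class II chain sum did not. The gap lay between treated replicate 2 (57.2) and aged replicate 2 (60.9), whose median-of-ratios scaling factors were 0.934 and 1.03. Divided by these factors the libraries change order, so the separation depends on the scaling. Dendritic cell markers summed to 1.121 to 2.69 TPM over all libraries, with 7 of 8 under 1 TPM throughout, and T and NK cell markers to 1.5 to 3.76 TPM, also with 7 of 8 under 1 TPM. B cell markers summed to 2.73 to 5.84 TPM in young, 0.674 to 7.38 in aged and 1.08 to 2.12 in treated libraries. Aged replicate 3 was the highest aged library in B cell markers, in macrophage markers and in class II chains. Among the young, replicate 1 was highest in B cell markers and replicate 3 in macrophage markers and class II chains. No marker listed was at 0 in all libraries. Markers of other cell types were read in the same way, here for aged against young livers. Of 5 cholangiocyte markers 2 were tested. Sox9 rose (1.03, limma adjusted p = 0.0328), a call lost in the fit of 6 libraries, and Spp1 was -0.29. Krt19, Krt7 and Epcam, under the filter, had lower means in aged than in young libraries. Krt19 was at 1.65, 0.815 and 0.99 TPM in the young and 0.582, 0.412 and 0.291 in the aged libraries. The young and aged means were 0.586 and 0.205 TPM for Krt7 and 0.336 and 0.201 for Epcam. Sox9 thus went against the rest of its list. Of 5 monocyte markers 2 were tested and 0 were called. Plac8 was lower at an unadjusted p under 0.05 in limma (-0.82), and Ly6c2 was 0.58. All 5 stellate cell markers were below 0 in aged against young livers (median -0.54), and Col3a1, a collagen chain, fell (-1.17 ± 0.195, 0.444-fold, limma adjusted p = 0.0186). Of 6 sinusoidal endothelial markers 5 were below 0 (median -0.07), and Lyve1, a hyaluronan receptor, fell (-1.22 ± 0.248, 0.43-fold, limma adjusted p = 0.0449). Both calls were lost without young replicate 1, 2 or 3 (0.0948, 0.0563 and 0.054 for Col3a1, and 0.17, 0.0896 and 0.159 for Lyve1), that of Col3a1 also without aged replicate 1 (0.0767) and that of Lyve1 without aged replicate 2 (0.109). The part of any of these cells in the class II values was not tested.

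**Figure D4:**
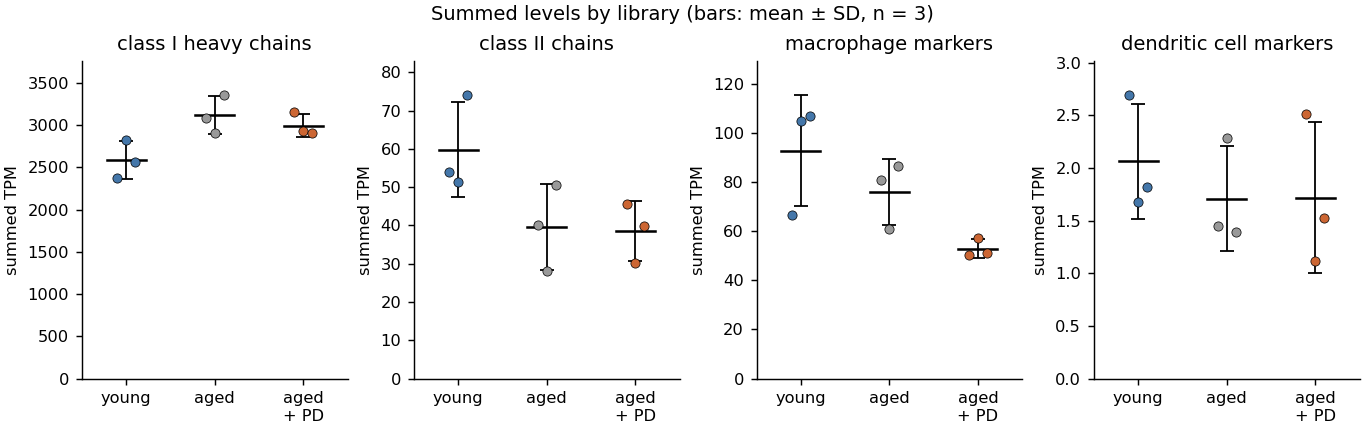
Summed TPM in each library (points) of the class I heavy chains, the class II chains, the Kupffer cell and macrophage markers and the dendritic cell markers, with the mean and SD of each group (bars, n = 3). The class II sums are 51.5 to 74.1 in young and 28.2 to 50.4 in the other 6 libraries, and the macrophage sums of the treated libraries, 50.3 to 57.2, lie below all others.

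The genes that feed class I were then read from a list of 12 peptide supply and loading genes, all tested. In each of the 3 comparisons 0 of 12 were called (unadjusted p under 0.05 in limma: 1 lower with age, and 2 higher and 3 lower in treated against aged and again in treated against young livers). Of all tested genes 1.1% were called in aged against young, 1.45% in treated against aged and 6.88% in treated against young livers. Over the 12 genes 6 lay above and 6 below 0 in treated against aged livers. The 3 below 0 at an unadjusted p under 0.05 were the immunoproteasome subunits Psmb8 and Psmb9 and the proteasome activator Psme1. Psmb8 was at 20.4, 30.2 and 27.7 TPM in the young, 30.8, 27.8 and 31.5 in the aged and 20.6, 18.5 and 19.9 in the treated libraries, with all treated below all aged libraries (-0.60 ± 0.136, 0.662-fold, limma adjusted p = 0.0556). Psmb9 was -0.39 ± 0.164 (0.237) and Psme1 -0.33 ± 0.112 (0.156). The 2 above 0 at that p were the general folding factors Calr and Pdia3, which also serve many other proteins. Pdia3 was at 184, 167 and 155 TPM in the young, 197, 136 and 150.0 in the aged and 213, 270.3 and 229.7 in the treated libraries (0.57 ± 0.143, 1.49-fold, 0.0715) and Calr 0.40 ± 0.138 (0.16). None of these passed. Psmb8 passed with the listed rows rescaled to equal totals (adjusted p = 0.0376) and with library weights (0.0486), and without aged replicate 1 Pdia3 (0.0266) and Calr (0.0294) passed. Treated against young, Psmb9 was lower in all treated libraries (-0.59 ± 0.164, 0.666-fold, limma adjusted p = 0.0553) and Pdia3 higher (0.49 ± 0.143, 1.4-fold, 0.0631). Library weights called Psmb9 (0.0274) and Pdia3 (0.0482), and the fit of 6 libraries called Psmb9 (0.023), Pdia3 (0.0169) and Calr (0.0311). Median-of-ratios scaling called Pdia3 (0.0392), and leaving out 1 library called Psmb9 (without treated replicate 1, 0.0395) and Psmb8 (without young replicate 1, 0.0396).

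Of 9 genes of class II peptide supply, 7 were found (the other 2 carry names that spreadsheets turn into dates) and 0 were called in the 3 comparisons (unadjusted p under 0.05: 0 with age, Ctss lower with the drug, and Ctss and Fcgrt lower in treated against young). In treated against young livers library weights called Fcgrt, and Ctss passed with a library left out (lowest limma adjusted p = 0.0406). Ctss, the cathepsin that trims the invariant chain, was at 11.4, 16.8 and 19.2 TPM in the young, 15.5, 12.2 and 15.1 in the aged and 12.2, 9.93 and 9.9 in the treated libraries, and treated minus aged was -0.40 ± 0.177 (limma adjusted p = 0.258). Of 18 regulators 17 were tested, of which 0 were called with age (2 higher and 1 lower at an unadjusted p under 0.05 in limma; library weights called 3), 1 in treated against aged and 2 in treated against young livers. Over all tested genes the shares called were 1.1%, 1.45% and 6.88%, in the same order. Irf1, an interferon-induced factor that acts on class I and immunoproteasome promoters, was at 12.2, 13.1 and 10.33 TPM in the young, 7.13, 6.99 and 13.2 in the aged and 21.2, 20.7 and 21.3 in the treated libraries. All treated libraries lay above all untreated ones, and Irf1 rose by 1.23 ± 0.203, 2.34-fold against aged (limma adjusted p = 0.0198) and 0.81 ± 0.203, 1.75-fold against young livers (0.0393). The first call was lost without aged replicate 2 (adjusted p = 0.0588), without treated replicate 1, 2 or 3 (0.0548, 0.0847 and 0.0773), with no filter (0.0564) and in the fit of 6 libraries (0.0642), and the second without any 1 of the 6 libraries compared (0.075 to 0.133). Aged against young, Irf1 was -0.42 ± 0.203 (limma adjusted p = 0.364, and 0.00621 without aged replicate 3). Rela, an NF-kappaB subunit, rose in treated against young livers by 0.70 ± 0.114, 1.63-fold (limma adjusted p = 0.00713), and was 0.50 ± 0.114 in aged against young (0.0687, and 0.00761 without aged replicate 3). Of the X box factors, Rfxank was at 4.27, 3.86 and 3.7 TPM in the young, 7.28, 7.14 and 4.82 in the aged and 5.04, 3.85 and 4.56 in the treated libraries. All aged libraries lay above all young ones (0.62 ± 0.165, 1.53-fold, limma adjusted p = 0.107), a difference that was called with library weights (0.019) and without aged replicate 3 (0.00752). Treated minus aged was -0.46 ± 0.165 (limma adjusted p = 0.179, and 0.0313 without aged replicate 3). Rfx5 and Rfxap and the Y box factors Nfya, Nfyb and Nfyc were not called in any of the 3 comparisons.

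**Figure D5:**
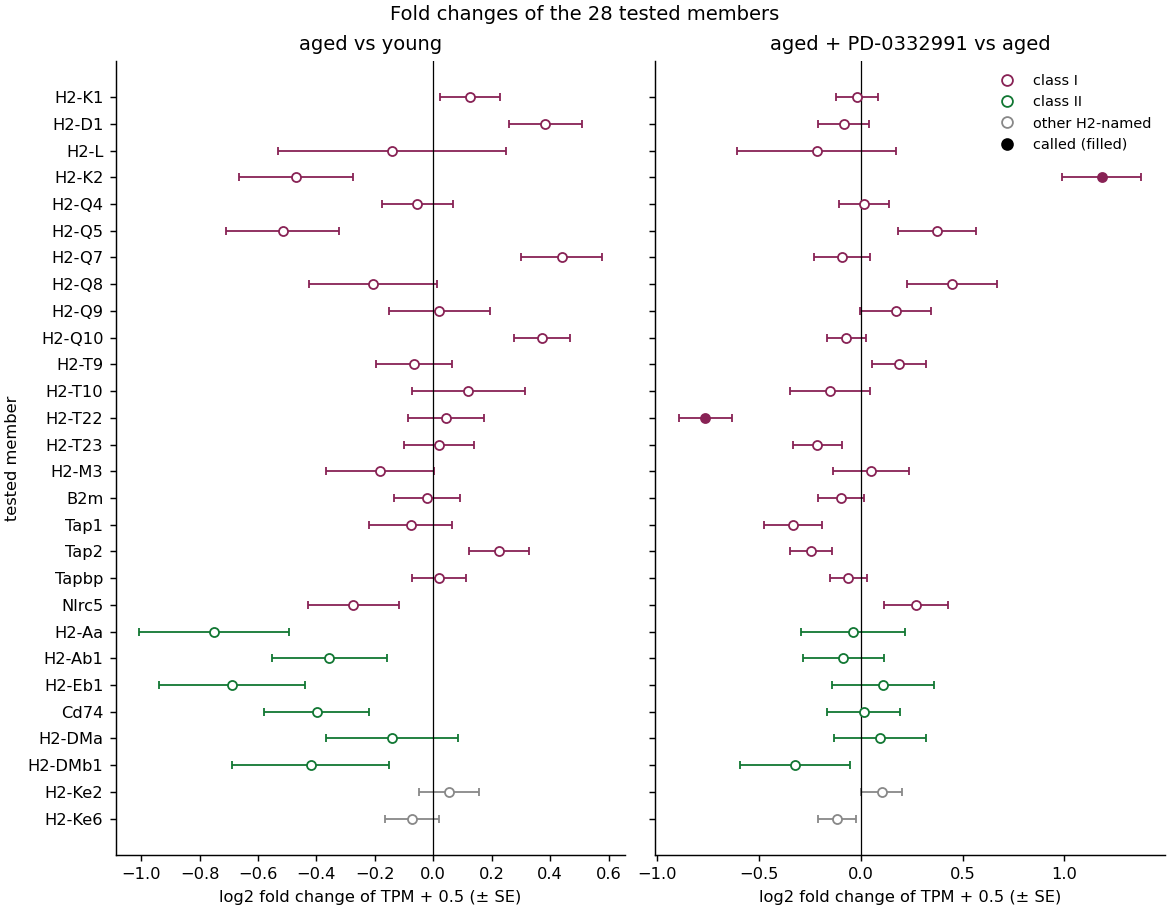
Log2 difference of each tested member (points) with its standard error (bars) from limma on log2(TPM + 0.5), for aged against young and for treated against aged livers. With age all 6 class II genes lie below 0; with the drug H2-K2 lies at 1.18 and H2-T22 at -0.76, and the 6 class II genes lie between -0.32 (H2-DMb1) and 0.11 (H2-Eb1).

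The 2 genes named only for position do not present antigen. H2-Ke2, now called Pfdn6, a subunit of the chaperone prefoldin, was at 65.6, 63.4 and 58.6 TPM in the young, 65.2, 63.8 and 65.7 in the aged and 61, 74.1 and 75.1 in the treated libraries. H2-Ke6, a steroid and fatty acid dehydrogenase, was at 103, 118 and 101 TPM in the young, 99.6, 98.9 and 106 in the aged and 93.4, 90.4 and 97.3 in the treated libraries, though only 23.9% of its 31-base stretches are its own. Neither was called: H2-Ke2 was 0.05 ± 0.102 with age and 0.10 ± 0.102 with the drug (limma adjusted p = 0.857 and 0.632), and H2-Ke6 -0.07 ± 0.0925 and -0.12 ± 0.0925 (0.77 and 0.539).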

How the data were processed

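The authors deposited 1 table per library with TPM for 23444 gene symbols. Per the submitters' processing notes, abundances were estimated with kallisto and the build was mm10. Which kallisto release and gene models served, and how transcripts became genes, is not given in the sources used here. Per the labels' protocols, libraries were made with a paired-end Illumina TruSeq RNA kit. TPM keeps no depth, so no counting intervals are given, and 0 is read only as listed at 0 (6604 rows were at 0 in all libraries). Rows whose symbol had become an ambiguous date (4) were left out.

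Groups and replicate numbers came from the labels. All 9 libraries were fitted in 1 model on log2(TPM + 0.5) with limma 3.58.1 (R 4.3.3, intensity trend, robust variance), with group as the term, 2-sided contrasts, and Benjamini-Hochberg adjustment over the 10161 genes with 1 TPM or more in at least 3 libraries. Reads can be divided between near copies, so sums of TPM were compared on the log2 scale by exact two-sided permutation (scipy 1.17.1). The fit was tested on simulated data.

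The members and lists were chosen with earlier results of these data known. Members given with every library's value are those called in any comparison, the 7 taken by name, and those with a group mean of 20 TPM or more; H2-Eb1, H2-DMb1, H2-Q8 and H2-T24 and the genes of the other lists were added after their values were seen. Promoters are from RefSeq (GRCm38.p6), where 47 members matched by symbol, 2 by synonym and 2 (H2-L and H2-T9) not at all. Alternatives were other pseudocounts, filters, scalings, library weights, a fit of 2 groups, a replicate block and leaving out each library. The sum with H2-T9, the shares within sums, the ratio to B2m and the 31-base stretches were added after seeing the data.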

Additional observations from a re-analysis of the deposited data

How the results depend on the processing

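Over 28 members, 3 comparisons and all alternatives, 1329 values were recomputed: 1291 kept their side of the threshold or moved less than the replicate spread, 11 lost a call, 19 gained one, 8 moved more and 0 reversed; 82 changed sign while called in neither fit. The number of genes called among all tested moved more. With no filter it was 62 for age (112 as reported) and 29 for the drug (147). Library weights gave 490, 271 and 1354 (the last for treated against young, 699 as reported), and fits of 2 groups 49, 25 and 1282. Leaving out 1 library gave 16 to 696, 7 to 392 and 153 to 475; the extremes came without young replicate 1 and aged replicate 3, without treated replicate 2 and aged replicate 3, and without treated replicates 2 and 1. The replicate numbers did not pair the libraries (9 same-number correlations of residuals, -0.22 to 0.17). With the replicate block 91, 60 and 492 genes were called, H2-T22 in treated against aged livers lost its call (adjusted p = 0.0522) and H2-Aa in treated against young gained one (0.0208). Median-of-ratios scaling turned the log2 difference of the class I heavy-chain sum, treated against aged, from -0.055 to 0.051, and moved treated against young from 0.21 to 0.34 (quantile normalization: 0.0895) and that of the classical chains from 0.16 to 0.28. The cause of these shifts was not tested.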

Other observations

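Of 3 class I-like genes outside the H2 region (Cd1d1, Cd1d2 and Mr1), 2 were tested. Cd1d1, which shows lipids to NKT cells, was at 91.9, 104 and 91.2 TPM in the young, 76.9, 80.6 and 96.1 in the aged and 72.1, 67.2 and 72.8 in the treated libraries. All treated libraries lay below all aged and all young ones; Cd1d1 fell by 0.43 on the log2 scale against young livers (limma adjusted p = 0.0338) and was -0.25 ± 0.106 against aged livers (0.241). The call against young livers was lost with median-of-ratios scaling (adjusted p = 0.11) and without any 1 of the 6 libraries compared (0.0734 to 0.126). Mr1, which shows vitamin B metabolites to MAIT cells, was at 0.585 to 1.38 TPM and was not called.

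H2-T24, a class Ib gene under the filter, was at 1.08, 0.899 and 0.926 TPM in the young, 0.645, 0.915 and 1.2 in the aged and 0.469, 0.517 and 0.337 in the treated libraries; all treated libraries lay below all untreated ones, and no test was run. Neutrophil markers summed to 2.4 to 3.29 TPM in young, 6.82 to 22.3 in aged and 19.7 to 29.1 in treated libraries. Of the 5 on the list, Ly6g was not found, and Mmp8 and Ngp stayed under 1 TPM throughout. The sum is therefore nearly all S100a8 and S100a9 and does not stand for the whole list.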
